A study of Mus musculus with 3 samples.

Results

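The subject is a group of 10 genes whose transcripts mark naive mouse embryonic stem cells: Zfp42, Nr0b1, Dppa2, Dppa3, Dppa4, Dppa5a, Tcl1, Fbxo15, Tdh and Gbx2. They were taken by Entrez gene number from the gene tables of 3 RNA-seq libraries, where all 10 were listed, of 17997 genes listed in at least 1 library. The cells are 46C mouse embryonic stem cells of the strain 129 background, grown on gelatin with serum and the cytokine LIF (leukemia inhibitory factor), and the labels name no feeder layer. The libraries are total RNA of cells given the empty vector, PB, and taken at passage 2 (the vector control), of cells given Lef1 (PB-Lef1) and taken at passage 2 (Lef1 passage 2), and of such cells taken at passage 5 (Lef1 passage 5). The labels do not say whether a culture was 1 clone or a pool, nor which promoter drives Lef1.

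Naive pluripotency is the state of the epiblast before implantation, held in culture by a network of transcription factors around Pou5f1 (Oct4), Sox2 and Nanog. LIF acts on this network through Stat3, and beta-catenin acts on it through factors of the TCF/LEF family, of which Lef1 is a member. The genes described here lie mostly downstream of that network: they are transcribed in naive cells, are shut down at different times as cells leave the state, and several are widely used as reporters of it, although some of them can be lost without loss of self-renewal.

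Each group is 1 library, so no test between conditions was possible. Levels are FPKM (read fragments per kilobase, scaled to library depth) with a 95% interval that covers counting error only, and the difference between cultures of the same kind is not known. A gene was called higher or lower where log2 of the ratio of (FPKM + 1) reached 1 in size, a 2-fold difference, with at least 3 FPKM and 20 expected reads in the higher library. A gene below these minima in 1 library of a comparison could thus be called only as higher in the other. The libraries held 9225401 (vector control), 9170554 (Lef1 passage 2) and 9380813 (Lef1 passage 5) expected reads, and the counts of the 10 genes were whole numbers in all 3. Where a sentence gives 3 levels without naming the library, they stand in this order. Lef1 itself was at 1.49, 135 and 214 FPKM, which follows the labels. The stem cell markers Pou5f1 (1135, 704 and 1062 FPKM), Sox2 and Nanog were high in all 3. Of 18 endoderm markers 16 were listed, with a summed level of 282 FPKM in the vector control, 2191 in Lef1 passage 2 and 651 in Lef1 passage 5. Afp and Ttr had no row and were not analysed here. Of 10 fibroblast and feeder markers 8 were listed, all but Lum and Postn. The sums of the 8 were 185, 188 and 95.8 FPKM and mostly Fn1, while the fibroblast collagen gene Col1a2 was at 0.23 FPKM, 0.06 FPKM and not listed. Thy1, a surface protein of fibroblasts and other cells, was at 15.65, 9.54 and 7.21 FPKM and was called lower in Lef1 passage 5 than in the vector control.

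The 10 genes covered a wide range of levels in all 3 libraries. Dppa5a was by far the most abundant, at 3771 FPKM in the vector control, 3818 in Lef1 passage 2 and 3816 in Lef1 passage 5, and made up 80.8%, 84.6% and 78.5% of the summed level of the 10. Zfp42 and Tdh followed at 170 to 386 FPKM. Dppa4, Tcl1, Fbxo15, Nr0b1 and Dppa2 lay between 19.5 and 101 FPKM. Gbx2 (6.02 to 13.2 FPKM) and Dppa3 (2.71 to 5.59 FPKM) were the weakest. The other 9 genes together summed to 897 FPKM in the vector control, 698 in Lef1 passage 2 and 1043 in Lef1 passage 5.

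**Figure D1:**
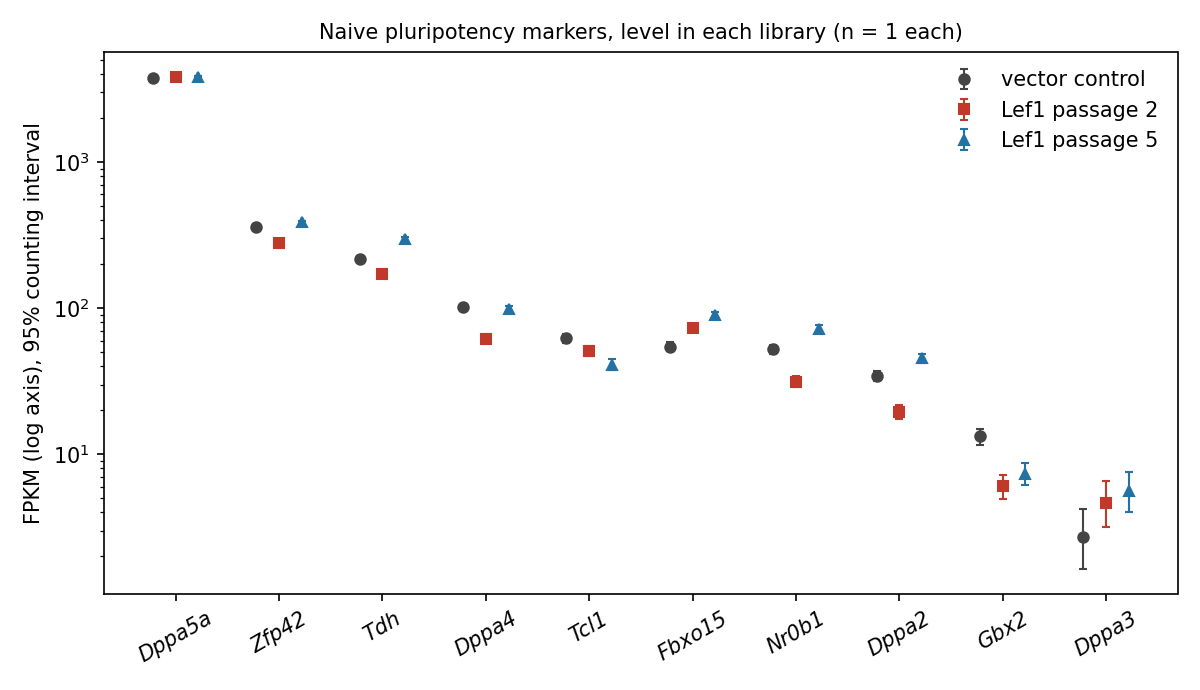
FPKM of each of the 10 genes (vertical log axis) in the vector control (circles), Lef1 passage 2 (squares) and Lef1 passage 5 (triangles), 1 library each, with 95% counting intervals. Dppa5a stays level at 3771 to 3818 FPKM, Zfp42, Tdh, Nr0b1 and Dppa2 dip in Lef1 passage 2 and are highest in Lef1 passage 5, and Gbx2 is highest in the vector control.

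The genes did not move as a block. In Lef1 passage 2 against the vector control, 7 of the 10 were lower and 3 higher by any amount, and 1 was called, Gbx2, as lower. The background was 1.82% of 10651 genes called lower and 6.49% called higher. Backgrounds here cover calls only, and the share of all genes lower or higher by any amount was not computed. The median log2 ratio of the 10 was -0.35, beside 0.09 over all genes tested. Against the same control, 3 were lower and 7 higher in Lef1 passage 5, and 0 were called, at a background of 1.4% of 10121 genes called higher and 1.28% called lower. Their median was 0.24, beside -0.02 over all genes tested. This comparison joins the introduced gene with passage, 5 against 2, and these cannot be told apart. Between the Lef1 libraries, Nr0b1 and Dppa2 were called higher in Lef1 passage 5 and 0 lower, at a background of 1.88% of 10593 genes higher and 6.86% lower, and the median was 0.37, beside -0.14. Each pair of these comparisons shares a library. In Lef1 passage 2 the level of a stem cell transcript can be lower because fewer cells of the culture made it or because each cell made less, and these cannot be told apart in bulk RNA. The endoderm sum given above was highest in that library, and its part in these ratios was not tested.

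**Figure D2:**
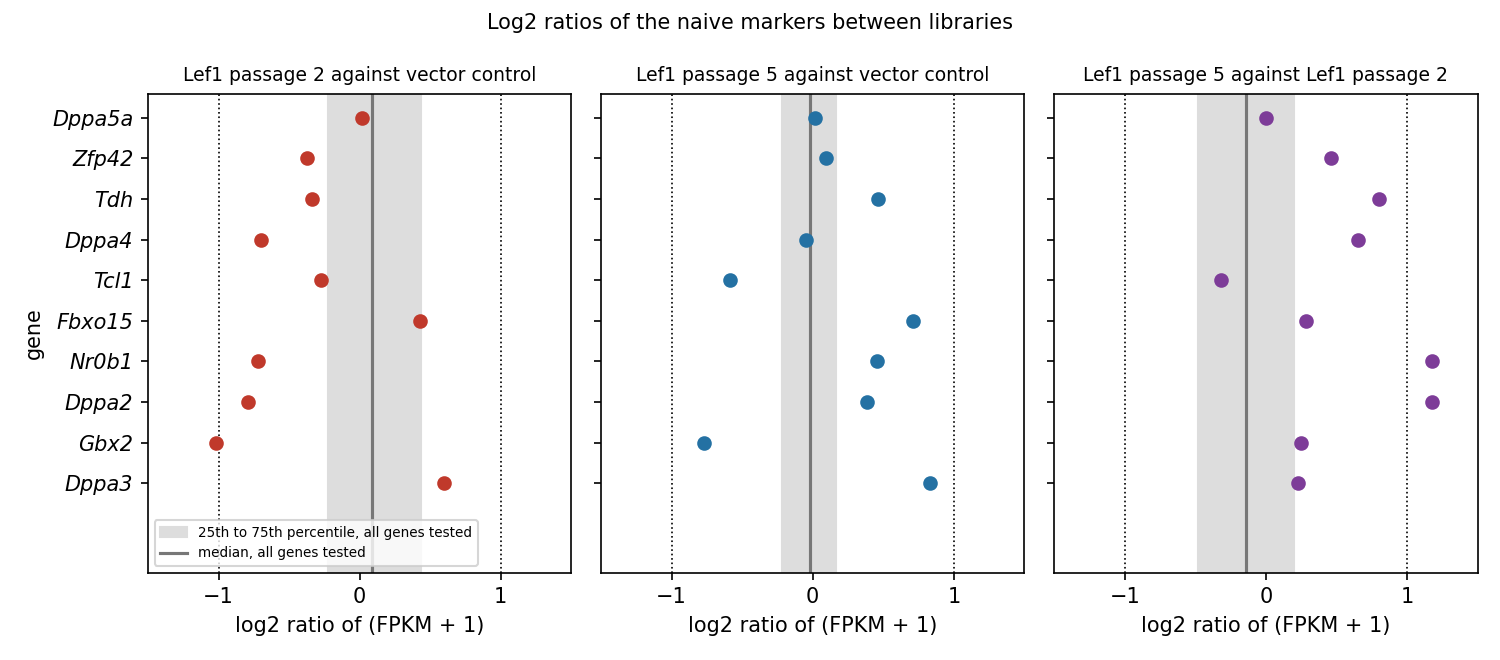
Log2 ratio of (FPKM + 1) for each of the 10 genes (points) in the 3 comparisons, with the median (grey line) and the 25th to 75th percentile (grey band) of all genes tested, and dotted lines at the 2-fold threshold of 1 in either direction. Gbx2 alone passes the threshold in the left panel, none of the 10 in the middle panel, and Nr0b1 and Dppa2 in the right panel.

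Of the transcriptional regulators, Zfp42 (Rex1; Entrez gene 22702, chromosome 8), a zinc finger protein of the YY1 family and a standard reporter of naive cells, was at 362 FPKM (352 to 371) in the vector control, 279 FPKM (271 to 288) in Lef1 passage 2 and 386 FPKM (376 to 395) in Lef1 passage 5. The 3 counting intervals did not overlap. Lef1 passage 2 was 1.29-fold below the vector control (1.24 to 1.35), and Lef1 passage 5 1.07-fold above it (1.03 to 1.11). Its rank among the genes listed was 171st, 184th and 163rd. Quantile scaling, which gives the libraries 1 common distribution of values, left a log2 ratio of -0.11 between Lef1 passage 2 and the vector control, against -0.37 as deposited. Median-of-ratios and TMM scaling moved it the other way, to -0.53 with each. The related genes Yy1, at 48.7, 55.4 and 53.2 FPKM, and Yy2, and Rlim, the ubiquitin ligase that marks the Zfp42 protein for degradation, were not called in any comparison.

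Nr0b1 (Dax1; Entrez gene 11614, chromosome X), an orphan nuclear receptor without a DNA-binding domain of the usual kind that holds back other receptors, was at 52.4 FPKM (48.9 to 56.1) in the vector control, 31.4 FPKM (28.7 to 34.3) in Lef1 passage 2 and 72.3 FPKM (68.2 to 76.5) in Lef1 passage 5. It was 1.67-fold lower in Lef1 passage 2 than in the vector control (1.49 to 1.87) and 1.38-fold higher in Lef1 passage 5 (1.26 to 1.51). Between the Lef1 libraries it stood 2.30-fold apart (2.07 to 2.56), and it was called. Its log2 ratio there was 1.18 and that of Dppa2 1.17, and which of them had the wider range turned with the pseudocount and the scaling. Its known partner Nr5a2, a receptor that activates Pou5f1, was at 13.7, 7.22 and 11.7 FPKM and was not called. Esrrb, an orphan receptor of the naive network, was at 143, 133 and 146 FPKM and was not called either. Of the 9 receptor and corepressor genes listed with Nr0b1, 6 were tested and Rarg, a retinoic acid receptor gene, was the 1 called, lower in Lef1 passage 2 (52.5 to 17.4 FPKM). Rarg was at 26.0 FPKM in Lef1 passage 5.

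Among 7279 genes with at least 10 FPKM in some library, those closest to Nr0b1 in their log2 ratios to the vector control were Ddx39b, an RNA helicase gene of mRNA export (146, 88.9 and 201 FPKM; distance 0.01), Nfyc, a subunit gene of the CCAAT-binding factor NF-Y (26.5, 15.9 and 35.6 FPKM; distance 0.05), and 4930470H14Rik (214, 125 and 289 FPKM; distance 0.05), whose expected counts were not whole. The distance is Euclidean over 2 log2 ratios from 3 libraries, and 5 genes lay within 0.1.

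Gbx2 (Entrez gene 14472, chromosome 1), a homeobox factor known as a target of LIF and Stat3 in stem cells and as a regulator of the midbrain-hindbrain border in the embryo, was at 13.2 FPKM (11.7 to 15.0) in the vector control, 6.02 FPKM (4.97 to 7.23) in Lef1 passage 2 and 7.35 FPKM (6.20 to 8.66) in Lef1 passage 5. Both Lef1 libraries lay below the vector control, and their own intervals overlapped. It was 2.20-fold lower in Lef1 passage 2 (1.76 to 2.77) and called, with a log2 ratio of -1.02 close to the threshold, and 1.80-fold lower in Lef1 passage 5 (1.46 to 2.23) and not called. With a pseudocount of 5 FPKM in place of 1 the call in Lef1 passage 2 was lost. Of the LIF/Stat3 genes listed with Gbx2, Socs3, the feedback inhibitor of the pathway, was at 105, 84.5 and 86.8 FPKM and Stat3 at 26.9, 27.8 and 30.7 FPKM. Otx2, the homeobox gene that opposes Gbx2 at the brain border and belongs to formative epiblast, was at 9.26, 20.2 and 23.8 FPKM and was called higher in both comparisons with the vector control. It was the 1 gene tested of the 9 listed as partners of Gbx2 in brain patterning, and the other 7 listed in the tables were below 2 FPKM.

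A promoter window was held by RefSeq tables (GRCm38.p6, 250 bases before to 50 after the start) for 4 of the 10 genes. The build differs from the mm8 of the deposited files, and no coordinate of the files was used. The windows of Zfp42 and Nr0b1 are shown because both genes were lowest in Lef1 passage 2 and highest in Lef1 passage 5, and that of Gbx2 because it was the gene called lower. They lie at chr8:43306960-43307259 (minus strand), chrX:86191525-86191824 (plus strand) and chr1:89931127-89931426 (minus strand), each written 5′ to 3′ along its gene. Capitals mark matches on either strand to TGCAAAT, part of the octamer recognised by Pou5f1, or to GGNGTGG, a Klf motif.
Zfp42: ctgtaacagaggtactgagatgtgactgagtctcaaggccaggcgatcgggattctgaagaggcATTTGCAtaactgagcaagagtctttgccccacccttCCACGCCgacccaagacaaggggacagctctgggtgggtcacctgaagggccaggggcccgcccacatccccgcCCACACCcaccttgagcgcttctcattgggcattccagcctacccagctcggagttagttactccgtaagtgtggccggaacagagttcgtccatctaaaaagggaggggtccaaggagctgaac
Nr0b1: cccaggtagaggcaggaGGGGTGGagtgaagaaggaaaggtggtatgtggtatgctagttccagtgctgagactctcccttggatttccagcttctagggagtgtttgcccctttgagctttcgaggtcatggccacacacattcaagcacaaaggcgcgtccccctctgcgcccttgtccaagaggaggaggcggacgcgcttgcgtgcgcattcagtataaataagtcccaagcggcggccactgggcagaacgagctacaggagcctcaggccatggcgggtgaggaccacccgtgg
Gbx2: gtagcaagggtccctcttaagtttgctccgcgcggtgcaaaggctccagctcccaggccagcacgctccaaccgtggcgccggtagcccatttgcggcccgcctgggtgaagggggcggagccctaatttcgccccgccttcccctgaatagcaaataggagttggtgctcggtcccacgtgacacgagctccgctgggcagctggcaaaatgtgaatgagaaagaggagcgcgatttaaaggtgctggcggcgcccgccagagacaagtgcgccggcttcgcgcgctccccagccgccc
Zfp42 has 1 match to the octamer part, which 3.98% of 27025 windows of the same length hold, and 2 to the Klf motif, which 32.6% hold. None of the matches overlap. Nr0b1 has 1 Klf match and Gbx2 none of the 5 motifs searched. The other 3 motifs were CTTTGAT or CTTTGAA for TCF/LEF factors (8.77% of windows), CATTGT for Sox factors (12.8%) and AAGGTCA for Esrrb (4.66%), and none of them occurs in these windows or in that of Tcl1, which has 1 Klf match. The G and C content was 57.7% for Zfp42, 58.7% for Nr0b1 and 64.7% for Gbx2, with a median of 52.7% over all windows. A match describes letters in this window and shows no binding.

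Dppa2 and Dppa4, which encode SAP-domain proteins that bind chromatin together and keep the promoters of early-embryo and germline genes free of DNA methylation, are neighbours on chromosome 16. Dppa2 (Entrez gene 73703) was at 34.4 FPKM (31.7 to 37.3) in the vector control, 19.5 FPKM (17.5 to 21.7) in Lef1 passage 2 and 45.3 FPKM (42.2 to 48.5) in Lef1 passage 5. Dppa4 (Entrez gene 73693) was at 101 FPKM (95.7 to 107), 61.8 FPKM (57.7 to 66.2) and 97.9 FPKM (92.8 to 103). Both were lowest in Lef1 passage 2, by 1.76-fold for Dppa2 (1.54 to 2.02) and 1.63-fold for Dppa4 (1.497 to 1.78), and neither was called there. They parted at passage 5. Dppa2 stood 1.32-fold above the vector control (1.18 to 1.47), while Dppa4 was within counting error of it, at 0.969 times (0.898 to 1.05). Against Lef1 passage 2, Dppa2 was 2.32-fold higher (2.04 to 2.65) and called, and Dppa4 was 1.58-fold higher (1.45 to 1.73) and not called. The level of Dppa2 was thus 34.0% of that of Dppa4 in the vector control, 31.5% in Lef1 passage 2 and 46.2% in Lef1 passage 5.

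Of 15 cleavage-stage and germline genes set beside Dppa2 and Dppa4, some of which are known to depend on them, 10 were tested in Lef1 passage 2 against the vector control, with 3 called higher and 0 lower. These were Taf7l, a germ cell relative of a general transcription factor subunit (1.79 to 6.81 FPKM), Slc25a31, the testis ADP/ATP carrier (0.74 to 3.72 FPKM), and Pramel7 (0.66 to 8.12 FPKM). At passage 5 the same genes were at 1.75, 0.62 and 3.83 FPKM. Of 8 genes tested in Lef1 passage 5 against the vector control, Pramel7 was the 1 called, as higher. Against Lef1 passage 2, 4 of 11 tested were called lower in Lef1 passage 5: Taf7l, Slc25a31, the germ cell helicase gene Ddx4 (7.11 to 2.25 FPKM) and the synaptonemal complex gene Sycp3 (23.8 to 11.1 FPKM). The median log2 ratio of the list was 0.42 in Lef1 passage 2 against the vector control, beside 0.09 over all genes, and -0.92 in Lef1 passage 5 against Lef1 passage 2, beside -0.14. Taf7l, Slc25a31, Pramel7 and Tex101 (1.74 to 4.07 FPKM) were below 3 FPKM in the vector control. Against that library they were tested only through their level in Lef1 passage 2 or, for Pramel7 at passage 5, in Lef1 passage 5. Taf7l, Slc25a31, Ddx4 and Tex101 were also below 3 FPKM in Lef1 passage 5. Between the Lef1 libraries they were tested only through Lef1 passage 2, and Tcstv3 (1.78 to 3.72 FPKM) only through Lef1 passage 5. Of the 4 genes called lower there, Sycp3 alone was above 3 FPKM in both. The medians of this list depend on such genes, so their sign cannot be set against that of the 10 naive markers. The cleavage-stage genes Zscan4c and Zscan4f, at 5.18, 4.25 and 4.91 FPKM and at 9.17, 7.48 and 7.96 FPKM, were not called, and their expected counts were not whole.

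Dppa3 (Stella; Entrez gene 73708, chromosome 6), a maternal factor that protects the genome from DNA methylation by keeping Uhrf1 from chromatin, rested on 19 reads in the vector control, 32 in Lef1 passage 2 and 40 in Lef1 passage 5. Its levels were 2.71 FPKM (1.63 to 4.23), 4.62 FPKM (3.16 to 6.52) and 5.59 FPKM (3.99 to 7.61). The order was upward, but neighbouring intervals overlapped. The ratio to the vector control was 1.70 in Lef1 passage 2 (0.937 to 3.18), which includes no difference, and 2.06 in Lef1 passage 5 (1.17 to 3.77), which does not. The log2 ratio of 0.83 in Lef1 passage 5 did not reach the 2-fold threshold, and passed it with a pseudocount of 0.1 FPKM. In the vector control Dppa3 was below the minima of 3 FPKM and 20 reads. Against that library it was tested only through its level in the Lef1 libraries, and could only be called higher. Uhrf1 was at 119, 93.8 and 132 FPKM, and it was not called in any comparison, like the other 4 genes of DNA methylation and its removal listed with Dppa3.

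Dppa5a (Esg1; Entrez gene 434423, chromosome 9), a KH-domain RNA-binding protein, showed the least change of the 10. Its 3771 FPKM (3720 to 3823), 3818 FPKM (3766 to 3871) and 3816 FPKM (3765 to 3868) overlapped in their intervals. The ratio to the vector control was 1.01 in both Lef1 libraries, with intervals of 0.993 to 1.03. It ranked 4th, 3rd and 4th among all genes listed in its library. The direction is set by the scaling: with median-of-ratios scaling the log2 ratio of Lef1 passage 2 to the vector control turned from 0.02 to -0.14. Ooep, a KH-domain gene of the egg beside Dppa5a on the chromosome, was at 75.5, 66.2 and 79.97 FPKM and was not called. Of the other genes listed with Dppa5a, KH-domain relatives and members of the egg complex some of them form, Khdc3 was called lower in Lef1 passage 2 (10.7 to 3.89 FPKM) and stood at 11.8 FPKM in Lef1 passage 5. Tle6, a corepressor-like gene of that complex, was called higher in Lef1 passage 2 and in Lef1 passage 5 (2.77, 10.4 and 6.68 FPKM).

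Tcl1 (Entrez gene 21432, chromosome 12), a coactivator of the Akt kinases that promotes proliferation of stem cells, was the 1 gene of the 10 that was lowest in Lef1 passage 5. It was at 62.1 FPKM (57.8 to 66.6) in the vector control, 51.2 FPKM (47.3 to 55.4) in Lef1 passage 2 and 40.96 FPKM (37.5 to 44.7) in Lef1 passage 5. The 3 intervals did not overlap. Lef1 passage 2 was 1.21-fold lower than the vector control (1.09 to 1.35) and Lef1 passage 5 1.51-fold lower (1.35 to 1.70), and neither was called. The table joins 5 transcripts of Tcl1, and the length used for its FPKM went from 1409 to 1406 and 1391 bases. Of its relatives, Tcl1b2, Tcl1b3 and Tcl1b4 were at 0.34 FPKM or less, and Mtcp1 was at 5.58, 7.42 and 3.83 FPKM. None of the 4 family and kinase genes tested was called. Akt2 had the highest level of them, at 23.4, 27.9 and 28.9 FPKM.

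Tdh (Entrez gene 58865, chromosome 14), threonine dehydrogenase, with which mouse embryonic stem cells break down threonine to glycine and acetyl-CoA, was at 216 FPKM (209 to 223) in the vector control, 170 FPKM (164 to 177) in Lef1 passage 2 and 298 FPKM (290 to 306) in Lef1 passage 5. It was 1.27-fold lower in Lef1 passage 2 (1.20 to 1.33), 1.38-fold higher in Lef1 passage 5 (1.32 to 1.44) and 1.75-fold higher in Lef1 passage 5 than in Lef1 passage 2 (1.67 to 1.83). None of these was called, although with median-of-ratios scaling the difference between the Lef1 libraries passed the threshold at a log2 ratio of 1.01. With quantile scaling that log2 ratio was 0.53, against 0.80 as deposited. An annotated noncoding gene on the other strand, Gm17232, overlaps Tdh, and the sources used here do not say whether counting used strand, so their reads may not be separated. Gcat, the enzyme that takes up the product of Tdh, was at 29.2, 19.6 and 31.7 FPKM. Gldc, of the glycine cleavage system, was at 130, 76.5 and 110 FPKM. Of the 14 enzyme genes of threonine, glycine and one-carbon metabolism 0 were called in any comparison. Their median log2 ratios were -0.42 in Lef1 passage 2 and 0.02 in Lef1 passage 5 against the vector control, and 0.40 between the Lef1 libraries.

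Fbxo15 (Entrez gene 50764, chromosome 18) is an F-box protein whose locus carried the reporter of the first reprogramming experiments. Like Dppa3, it was lowest in the vector control and highest in Lef1 passage 5. It was at 54.3 FPKM (50.5 to 58.3) in the vector control, 73.3 FPKM (68.8 to 77.9) in Lef1 passage 2 and 89.4 FPKM (84.6 to 94.4) in Lef1 passage 5. The 3 intervals did not overlap, and both Lef1 libraries lay above the vector control, by 1.35-fold (1.23 to 1.48) and 1.65-fold (1.505 to 1.80), below the threshold. Timm21, a mitochondrial import gene that overlaps Fbxo15 on the other strand, was at 14.8, 8.44 and 12.7 FPKM, an order unlike that of Fbxo15, and the same limit on strand holds for this pair. The 3 genes of the ubiquitin ligase core to which F-box proteins bind, Skp1 (161, 150 and 205 FPKM), Cul1 and Rbx1, were not called.

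Set against Pou5f1 within a library, which is free of the scaling between libraries, the genes differed in their course. The level of Pou5f1 was 0.620 of that in the vector control in Lef1 passage 2 and 0.936 in Lef1 passage 5. These courses depend on the reference gene, since Nanog was at 1.05 and 1.10 of its vector control level. Dppa4 was 8.90% of the Pou5f1 level in the vector control, 8.78% in Lef1 passage 2 and 9.22% in Lef1 passage 5, and so moved in step with it. Nr0b1, at 4.62%, 4.46% and 6.80%, and Dppa2, at 3.03%, 2.77% and 4.26%, were near their starting share in Lef1 passage 2 and above it in Lef1 passage 5. Zfp42, at 31.8%, 39.7% and 36.3%, and Tdh, at 19.0%, 24.2% and 28.0%, were less reduced than Pou5f1 in Lef1 passage 2. Fbxo15 went from 4.78% to 10.4% and 8.42%, and Dppa5a from 332% to 542% and 359%. Gbx2, from 1.17% to 0.855% and 0.692% of the Pou5f1 level, was the 1 gene of the 10 whose share was below that of the control in both Lef1 libraries. Tcl1 went from 5.47% to 7.27% and 3.86%, and Dppa3 from 0.239% to 0.656% and 0.526%.

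**Figure D3:**
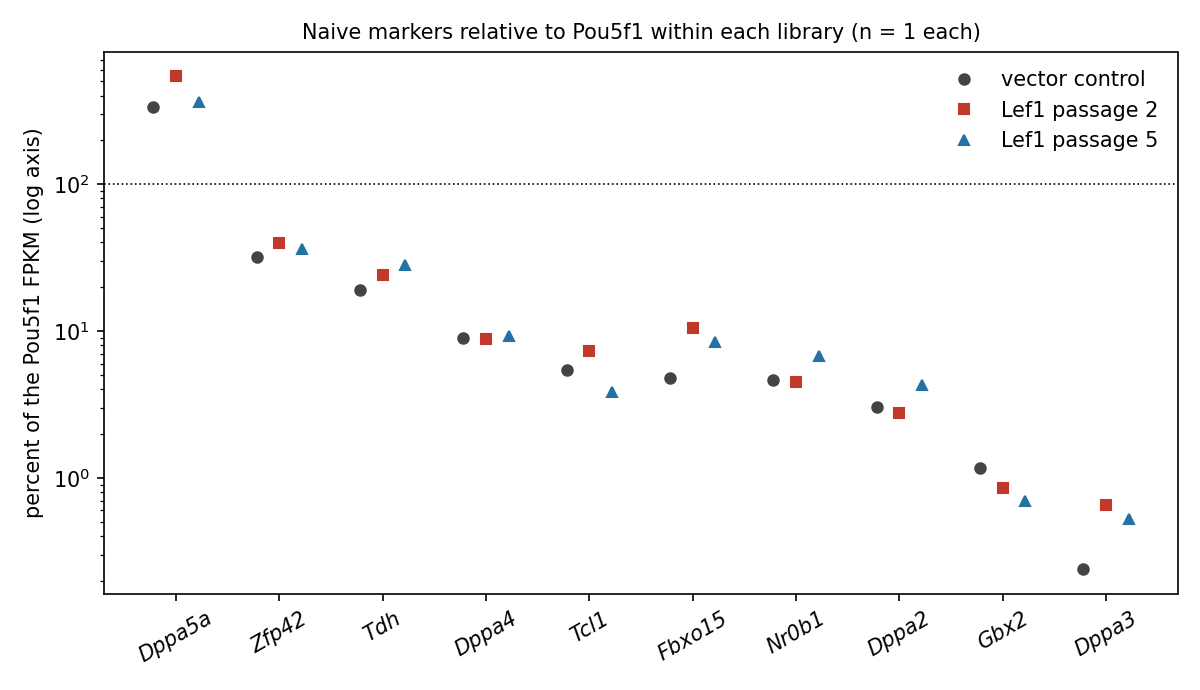
Level of each of the 10 genes as a percentage of the Pou5f1 FPKM in the same library (vertical log axis; dotted line at 100%), 1 library each. Dppa4 keeps a share of 8.78% to 9.22%, Gbx2 is lower in both Lef1 libraries, and Fbxo15 is higher in both, as are Zfp42, Tdh, Dppa5a and Dppa3.

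Beside the 10 genes, the transcription factors of the core and naive network showed few differences of size. Of 15 factor genes, Tbx3 was called higher in Lef1 passage 2 (29.6 to 77.6 FPKM, and 48.9 FPKM in Lef1 passage 5) and 0 lower, and 0 were called in the other comparisons. Their median log2 ratio in Lef1 passage 2 against the vector control was 0.07, beside -0.35 for the 10 markers and 0.09 for all genes. A median below that of all genes was not particular to the 10 markers. In this comparison it was -0.18 for the other transcripts linked to stem cells and -0.50 for the formative and primed epiblast markers, both described below. Of 16 other transcripts linked to stem cells, 3 were called lower in Lef1 passage 2: Eras, a Ras-like gene of stem cell growth (54.3 to 20.3 FPKM), the TGF-beta ligand gene Gdf3 (24.8 to 8.19 FPKM) and Khdc3. Comparing the Lef1 libraries, Gdf3 (8.19 to 29.8 FPKM), Khdc3 and the RNA-binding protein gene L1td1 (97.7 to 213 FPKM) were called higher at passage 5. The expected counts of Gdf3 were not whole.

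Of 13 markers of formative and primed epiblast, the states that follow the naive one, 10 were tested in each comparison with the vector control. Between the Lef1 libraries 8 were tested. Otx2 was called higher and Pou3f1 (6.26 to 2.29 FPKM) and Lin28b (6.60 to 2.03 FPKM) lower in Lef1 passage 2 than in the control. At passage 5, again against the control, Otx2 was called higher and Pou3f1 (2.27 FPKM) lower. Lin28b (7.04 FPKM) and the DNA methyltransferase gene Dnmt3b (65.6 to 145 FPKM) were called higher in Lef1 passage 5 than in Lef1 passage 2. Fgf5, the classical primed marker, was at 0.09, 0.05 and 0.04 FPKM. Of 16 endoderm markers tested in Lef1 passage 2 against the vector control, 15 were called higher, such as Gata6 (2.24 to 46.3 FPKM), with a median of 3.12. Against the same control 9 of 13 were called higher at passage 5, with a median of 1.79. Foxa2 (0.27 to 1.74 FPKM), Hnf4a (2.13 to 0.59 FPKM) and Cubn (2.68 to 2.53 FPKM) were too low to be tested there. Gata4, Gata6, Sox17, Sox7, Pdgfra, Dab2 and Amn were also below 3 FPKM in the control. They were tested only through their level in the Lef1 libraries, so the shares and medians against the control favour higher values. Between the Lef1 libraries 13 of 16 were called lower at passage 5, with a median of -1.75. Foxa2, Hnf4a and Cubn are among them. They were below 3 FPKM in Lef1 passage 5 and were tested here only through Lef1 passage 2, so this share and median favour lower values.

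**Figure D4:**
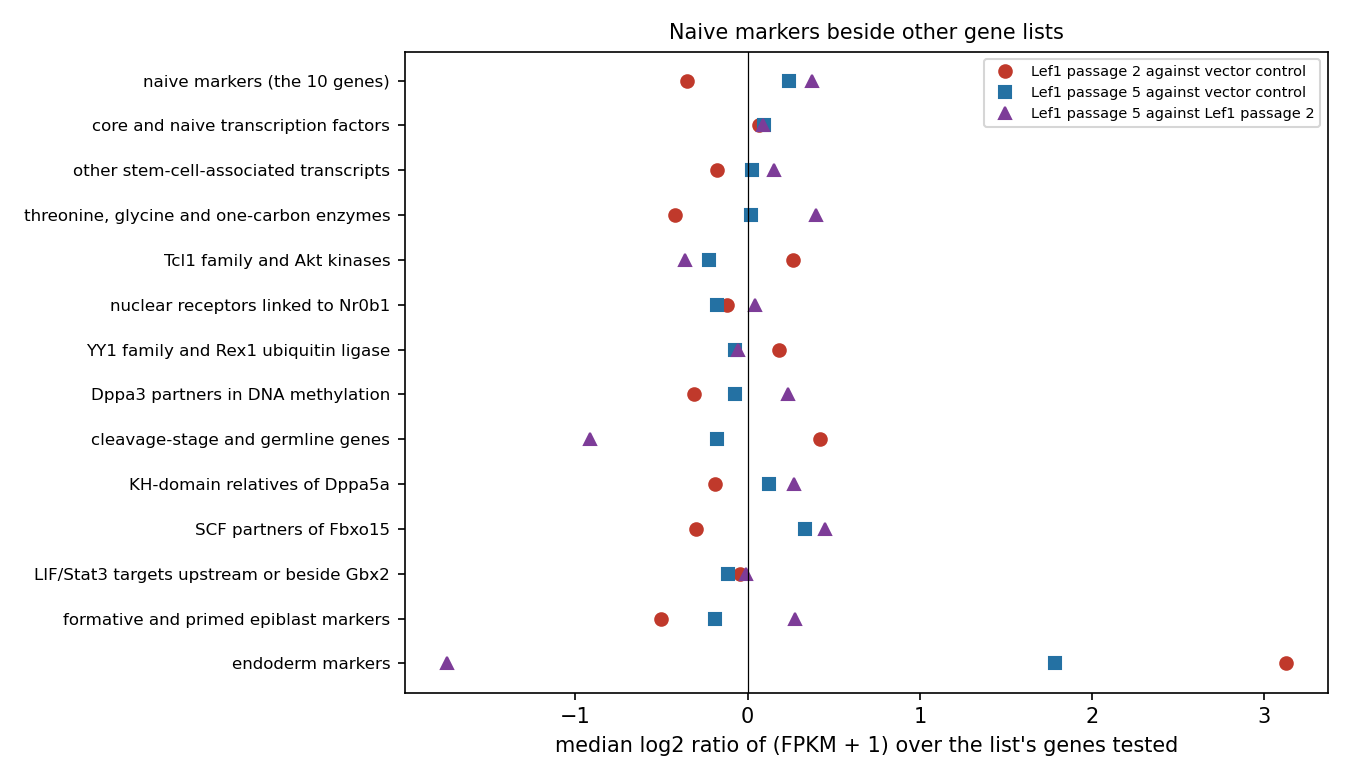
Median log2 ratio of (FPKM + 1) over the tested genes of each list with at least 3 of them, for Lef1 passage 2 against the vector control (circles), Lef1 passage 5 against the vector control (squares) and Lef1 passage 5 against Lef1 passage 2 (triangles). The 10 naive markers lie at -0.35, 0.24 and 0.37, the 15 core and naive factors at 0.07 in the first comparison, and the endoderm markers at 3.12, 1.79 and -1.75.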

How the data were processed

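RNA-seq of total RNA gave 1 gene table per library, whose columns, per the file headers, are the Entrez number, the RefSeq transcripts, their length, the expected count and the FPKM. The submitters' processing notes name Bowtie 0.12.2 and the genome build mm8. The sources used here name no counting program and do not say how reads matching several genes, or strand, were handled. The deposited expected counts (estimated counts, not whole for 8.49% to 8.61% of listed genes) were used for depth and intervals, and the deposited FPKM values for levels and ratios, as the authors scaled them. A gene with a row in only some libraries was taken as 0 in the others.

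Symbols came from a RefSeq table of GRCm38.p6 through the Entrez numbers, with 17951 of 17997 matched. Intervals of levels are exact Poisson and those of ratios Clopper-Pearson, at 95%. PCR copies of a molecule count as separate reads here, which the intervals, covering counting error only, leave out. The genes named are the 10 members, the called genes of 15 other lists (for endoderm markers as counts with examples) or, in a list with none called, that of highest FPKM, and the 3 nearest in pattern to Nr0b1, the member of widest range in log2(FPKM + 1), narrowly ahead of Dppa2. One called gene of these lists is not reported here. A few more partners and neighbours were named after their values were seen. The members and lists were chosen with earlier results of these data known. Alternatives were pseudocounts of 0.1 and 5, a minimum of 10 FPKM or none, median-of-ratios, TMM (edgeR 4.0.16) and quantile scaling, library-scaled counts without length, and a 1.5-fold threshold. The call rule and intervals were checked on simulated counts with counting error only and differences well beyond 2-fold. That check does not cover genes near the threshold or differences between cultures. Python 3.11.15, scipy 1.17.1 and R 4.3.3 were used.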

Additional observations from a re-analysis of the deposited data

Results flagged for a closer look

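A set of 4 genes lay below the vector control in Lef1 passage 2 and above it in Lef1 passage 5, each beyond counting error. The FPKM ratios to the vector control were 0.773 and 1.07 for Zfp42, 0.599 and 1.38 for Nr0b1, 0.567 and 1.32 for Dppa2, and 0.790 and 1.38 for Tdh. The difference between passages was not tested, since each group is 1 library and the same empty vector library at passage 2 stands in both ratios. The pattern of lowest in Lef1 passage 2 and highest in Lef1 passage 5 was held by 20.3% of 7280 genes with at least 10 FPKM in some library. That share counts the order by any amount, without asking for differences beyond counting error. The share of all genes that meet the stricter rule used for the 4 was not computed.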

How the results depend on the processing

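No paired analysis was possible because each group has 1 library. In Lef1 passage 2 against the vector control the count of the 10 genes called was 0 with a pseudocount of 5 and 5 with a 1.5-fold threshold (Nr0b1, Dppa2, Dppa4 and Gbx2 lower, Dppa3 higher, at a background of 25.5% of genes called), against 1. In Lef1 passage 5 against the vector control it was 1 with a pseudocount of 0.1 (4.09% of all genes called) and 4 with a 1.5-fold threshold (10.3%), against 0. Between the Lef1 libraries it was 4 with a 1.5-fold threshold (28.0% of all genes called), against 2.

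The median log2 ratio of the 10 genes in Lef1 passage 2 against the vector control was -0.52 with median-of-ratios, -0.51 with TMM and -0.17 with quantile scaling, against -0.35. Between the Lef1 libraries it was 0.58, 0.55 and 0.53 with these scalings and 0.56 with a minimum of 10 FPKM, against 0.37. In Lef1 passage 5 against the vector control it was 0.094 with a minimum of 10 FPKM, against 0.24. This minimum leaves out Dppa3 and, between the Lef1 libraries, Gbx2 as well. The median of all genes tested in Lef1 passage 2 against the vector control was 0.09 as deposited and -0.07 with median-of-ratios scaling, and the genes called split into 691 higher and 194 lower as deposited and into 505 and 306 with that scaling. Between the Lef1 libraries the split went from 199 and 727 to 381 and 451. Of 180 values of single genes under other settings, 145 moved by less than counting error and 5 changed sign, all of them of Dppa5a. Depth limits Dppa3 most, at 19 to 40 reads, and against the vector control it could only be called higher.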

Other observations

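Of the genes beside the 10 on the chromosome, Morc1, a chromatin ATPase gene of the germline next to Dppa2, was at 56.4, 26.9 and 47.2 FPKM in the vector control and the Lef1 libraries of passage 2 and passage 5, and was called lower in Lef1 passage 2, where Dppa2 and Dppa4 were also lowest. Dppa3 lies between Gdf3, at 24.8, 8.19 and 29.8 FPKM, and Nanog, at 160, 167 and 176 FPKM. Dppa3 was lowest in the vector control like Nanog, with intervals that overlapped between neighbouring levels, while Gdf3 was lowest in Lef1 passage 2. The expected counts of Gdf3 and Nanog were not whole. Triml2, next to Zfp42, was at 55.95, 84.3 and 71.3 FPKM, highest where Zfp42 was lowest. Cyb5a, next to Fbxo15, was at 90.9, 51.5 and 92.3 FPKM. Neighbours were taken from RefSeq gene order in GRCm38.p6.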
